A study of Bos taurus with 6 samples.

Results

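Annexins are cytosolic proteins that bind negatively charged phospholipids when calcium rises, and so attach to the inner face of the plasma membrane and to endosomes. They organize membrane domains together with S100 proteins, take part in exocytosis and endocytosis, and help to reseal wounded membranes. ANXA5 is also the protein behind the annexin V stain, which marks phosphatidylserine on the outside of dying cells. The genes described here are the annexin family around ANXA8L1, a bovine gene for which RefSeq gives the synonym ANXA8. The 10 members are ANXA1, ANXA2, ANXA3, ANXA4, ANXA5, ANXA6, ANXA7, ANXA8L1, ANXA9 and ANXA11, out of 23475 genes in the expression table. ANXA8L1 was chosen by its lower values in the agomir libraries, so its difference is a description with no test, and the other members were taken by their symbol.

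The cells were primary bovine preadipocytes grown from subcutaneous fat of 3 premature calves. They received either the bta-miR-484 agomir, a modified RNA that acts as this miRNA, or its negative control, the agomir NC, and were collected 48 h later. Each group held 3 libraries, called agomir and control libraries below; breed and genotype were not given in the sources used here. The labels do not say whether libraries of a group came from separate calves or cultures, so p-values measure only the spread between these samples, which may be technical. Values are FPKM, fragments per kilobase of transcript scaled to the mapped fragments of the library, a unit per length in which levels of different genes can be compared. Depth is unknown; library sums of FPKM ran from 365977 to 379361, the highest being that of control replicate 3. The level of bta-miR-484 itself was not analysed here.

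The labels call these cells adipocytes, and the markers in the libraries were mainly those of preadipocytes and fibroblasts. Of 14 such markers, 12 had a mean of at least 0.5 FPKM, the minimum for testing, and the list summed to between 23368 and 24544 FPKM in every library. The collagens COL3A1, COL1A1 and COL1A2 led it, with means of 7623, 5979 and 5721 FPKM, so the sum does not tell preadipocytes from fibroblasts. PDGFRA averaged 166 FPKM, but ZNF423 5.65 FPKM, PPARG 3.55 FPKM and CD34 0.481 FPKM, and the precursor marker DLK1 was listed at 0 throughout. The 8 markers of mature adipocytes summed to between 9.72 and 11.5 FPKM, led by LPL, and LEP and CIDEC were each listed at 0 in 4 libraries. Epithelial markers summed to at most 0.425 FPKM, with KRT5, KRT14 and KRT18 listed at 0 in all libraries. The highest sums of the remaining lists were 4.54 FPKM for endothelium, 8.39 FPKM for leukocytes, 10.96 FPKM for mesothelium and 0.623 FPKM for skeletal muscle. Smooth muscle and pericyte markers reached 531 FPKM through TAGLN and ACTA2, contractile genes that cultured fibroblasts also express. In limma, 0 of the marker genes passed an adjusted p of 0.05. At an unadjusted p of 0.05, 1 of 12 tested preadipocyte genes was higher with the agomir, PPARG (log2 fold change 0.23). In that list 2 genes were lower, NT5E (-0.25) and DCN (-0.12). Of 4 tested mature adipocyte genes 1 was lower, FABP4 (-0.49), whose groups overlapped. These counts stand beside 6.63% of all genes higher and 4.31% lower. In bulk cultures, fewer cells of a type and less RNA per cell cannot be told apart, and the part of these markers in the annexin values was not tested.

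Annexin levels spanned a wide range (the plot of FPKM by annexin), and 9 of the 10 members had a mean of at least 0.5 FPKM. ANXA2, which forms a complex with S100A10 at the plasma membrane, was the most abundant, with a mean of 1608 FPKM over the 6 libraries and rank 14 among all genes. ANXA1, which is also secreted and dampens inflammation through formyl peptide receptors, followed at 585 FPKM, and ANXA5 at 379 FPKM. ANXA8L1, whose product is found on late endosomes, had a mean of 138 FPKM, and 97.0% of the genes tested were at or below it. It shared this level with ANXA4 and ANXA6, binders of intracellular and plasma membranes, which both averaged 129 FPKM; the ranges of these genes overlapped. Further down came ANXA11, a binding partner of calcyclin, at 54.5 FPKM, ANXA7, known for membrane fusion, at 41.0 FPKM, and ANXA3 at 3.83 FPKM. ANXA9 did not exceed 0.0511 FPKM in any library. Outside the trio of ANXA8L1, ANXA4 and ANXA6, every step in this order held in all 6 libraries with no overlap between neighbours. ANXA10 and ANXA13, annexins outside the member list, were listed at 0 throughout.

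**Figure D1:**
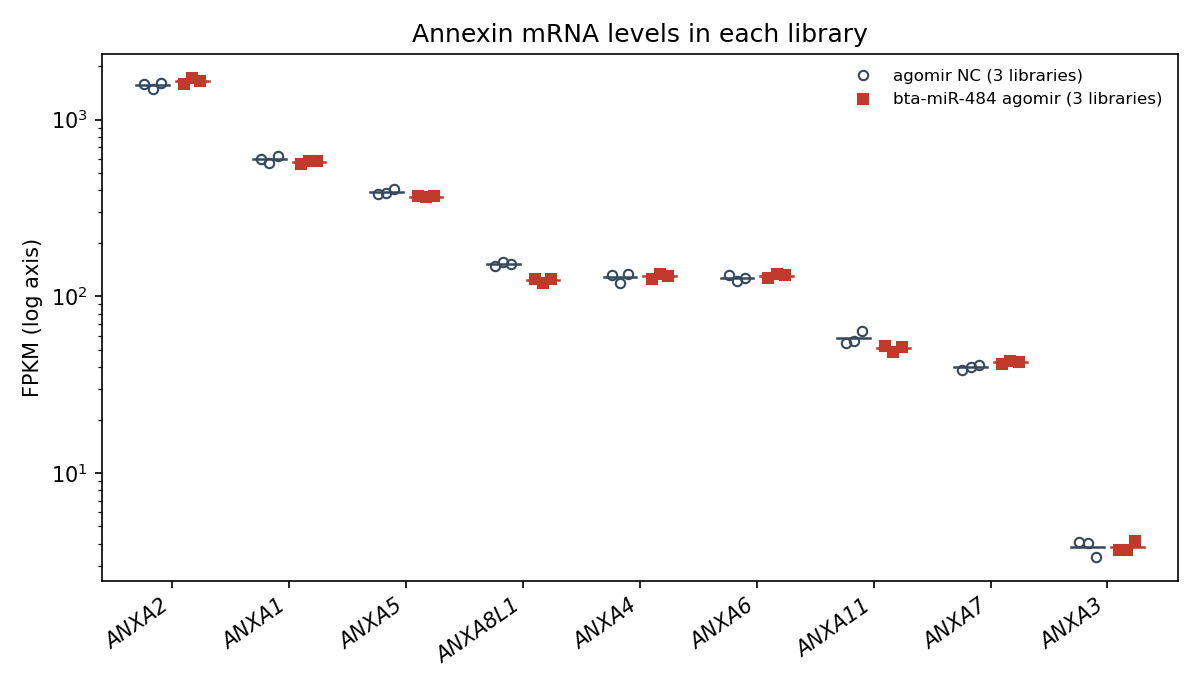
FPKM (log axis) of the 9 tested annexins, ordered by their mean, in the 3 agomir NC libraries (open circles) and the 3 agomir libraries (filled squares), with short lines at the group means. Levels run from ANXA2, with a mean of 1608 FPKM, to ANXA3, with a mean of 3.83 FPKM.

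ANXA8L1 stood at 125, 119 and 125 FPKM in the agomir libraries, against 148, 156 and 153 FPKM in the controls. The groups did not overlap, and these are the values by which the gene was selected. The agomir mean was 123 ± 3.47 FPKM (SD, n = 3) and the control mean 152 ± 3.94 FPKM (SD, n = 3), a ratio of 0.810. On the log2(FPKM + 0.5) scale the agomir minus control difference was -0.30 (standard error 0.041). When each library was left out in turn, it ranged from -0.32 to -0.28.

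The place of ANXA8L1 within the family differed too, as a further description of the same values. It ranked 4 among the annexins in each control library and 6 in each agomir library, below ANXA4 and ANXA6. The ratio of its FPKM to that of ANXA4 was 1.13, 1.31 and 1.14 in the controls, compared with 0.9997, 0.888 and 0.958 after the agomir. Agomir replicate 1 was nearly balanced, since ANXA8L1 and ANXA4 both stood at 125 FPKM there. For ANXA6 the corresponding ratios were 1.13, 1.27 and 1.21, compared with 0.993, 0.897 and 0.949. Relative to ANXA11, however, the groups overlapped: agomir ratios ran from 2.38 to 2.47, and control replicate 3 had a ratio of 2.40.

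The remaining annexins address whether the rest of the family also differed between the groups. In limma's fit over 12422 genes, 0 of the 8 other annexins tested were under an adjusted p of 0.05, beside 0.00805% of all genes, that is, TRAPPC4 alone. Their adjusted p in limma ranged from 0.364 for ANXA11 to 0.987 for ANXA3. At an unadjusted p of 0.05, 0 of the 8 were higher and 1 was lower with the agomir, beside 6.63% of all genes higher and 4.31% lower. Over all genes this split of 824 higher and 535 lower became 641 and 720 with median-ratio scaling, where 2 of the annexins were lower. Without control replicate 3 ANXA2 and ANXA7 were higher and 0 were lower, beside 5.93% and 3.08% of all genes. Without agomir replicate 2, 0 were lower, beside 3.62%, and without control replicate 1, ANXA5 and ANXA11 were lower, beside 4.80%. ANXA7 was higher without overlap between groups, as were 10.9% of all genes, and ANXA5 and ANXA11 were lower without overlap, as were 6.36% of all genes. The median log2 fold change of the 8 was 0.017, beside 0.013 over all genes tested, and it was -0.00021 with median-ratio scaling. With a library left out, it ranged from -0.010 without agomir replicate 3 to 0.047 without control replicate 1.

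ANXA11 had the lowest unadjusted p among the 8. Its agomir libraries gave 52.7, 48.2 and 51.8 FPKM and its control libraries 54.8, 55.6 and 63.7 FPKM. The groups lay close together without overlap, and control replicate 3 stood well above the other controls. The log2 fold change was -0.19 (standard error 0.064, 95% confidence interval -0.33 to -0.042) and the adjusted p from limma 0.364. Its unadjusted limma p was 0.0168, yet 0.0564 without control replicate 3, with a log2 fold change of -0.12, and 0.0666 without agomir replicate 2, with a log2 fold change of -0.15.

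ANXA5 gave 369, 364 and 369 FPKM after the agomir and 379, 385 and 407 FPKM in the controls. The agomir libraries were almost equal, with an SD of 0.794% of their mean, and control replicate 3 was again the highest. The log2 fold change was -0.087 (standard error 0.040), with a 95% confidence interval of -0.18 to 0.0024 and an adjusted p of 0.467 in limma. It was -0.041 after quantile normalization and -0.056 without control replicate 3, but -0.10 with median-ratio scaling (unadjusted limma p 0.0213) and -0.11 without control replicate 1 (unadjusted limma p 0.0395). ANXA1 gave 562, 586 and 580 FPKM after the agomir, compared with 598, 565 and 621 FPKM, so its groups overlapped. Its log2 fold change was -0.046 (standard error 0.044), but 0.017 after quantile normalization. It was -0.015 without control replicate 3 and -0.082 without control replicate 2.

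ANXA2 gave 1598, 1720 and 1654 FPKM after the agomir and 1591, 1486 and 1601 FPKM in the controls. Agomir replicate 1 fell between control replicates 1 and 3, so the groups overlapped. The log2 fold change was 0.088 (standard error 0.046), with a 95% confidence interval of -0.015 to 0.19 and an adjusted p of 0.527 in limma. It was 0.024 after quantile normalization and 0.054 without control replicate 2, but 0.11 without control replicate 3 (unadjusted limma p 0.0461) and 0.11 without agomir replicate 1. ANXA2 held 53.8 ± 0.717% of the summed annexin FPKM after the agomir (SD, n = 3) and 51.1 ± 0.567% in the controls (SD, n = 3). It dominated the family sum, which includes the selected ANXA8L1, so these shares are not independent of the selected values. That sum averaged 3081 ± 73.9 FPKM after the agomir (SD, n = 3) and 3053 ± 111 FPKM in the controls (SD, n = 3), a difference smaller than the spread between replicates. Without ANXA2 and the selected ANXA8L1, the sum was 1280.05, 1312 and 1310.2 FPKM after the agomir and 1337, 1291 and 1396 FPKM in the controls, and the groups overlapped.

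ANXA7 gave 41.2, 43.3 and 42.6 FPKM after the agomir and 38.6, 39.7 and 40.8 FPKM in the controls. The highest control lay just under the lowest agomir library. The log2 fold change was 0.094 (standard error 0.046, 95% confidence interval -0.0080 to 0.20) and the adjusted p from limma 0.495. For ANXA5, ANXA7 and ANXA11 alike, an exact permutation test (two-sided) yielded p = 0.1, which is the lower limit for 3 libraries against 3, so this test cannot reach 0.05.

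ANXA4, ANXA6 and ANXA3 overlapped between the groups. ANXA4 gave 125, 134 and 131 FPKM after the agomir, compared with 131, 119 and 134 FPKM. Its log2 fold change was 0.026 (standard error 0.053), but -0.028 without control replicate 2 and 0.059 without control replicate 3. It was 0.0077 with median-ratio scaling, 0.047 after quantile normalization and 0.0024 without agomir replicate 2. Control replicate 2 was the lowest library for ANXA4, as it was for ANXA2, ANXA6 and the family sum. ANXA6 gave 126, 133 and 132 FPKM after the agomir, compared with 131, 122 and 126 FPKM, and a log2 fold change of 0.041 (standard error 0.043). That fold change was 0.023 with median-ratio scaling, 0.063 after quantile normalization, 0.017 without control replicate 2 and 0.067 without control replicate 1. ANXA3 gave 3.69, 3.67 and 4.14 FPKM after the agomir, compared with 4.06, 4.05 and 3.35 FPKM. The SD within each group, relative to its mean, was the widest of the tested annexins, and the log2 fold change of 0.0077, which was -0.0081 with median-ratio scaling, -0.0046 after quantile normalization, -0.043 without agomir replicate 3 and -0.073 without control replicate 3, had a 95% confidence interval of -0.22 to 0.23. ANXA9 was listed at 0.00880, 0.0511 and 0.0427 FPKM after the agomir and at 0, 0 and 0.0162 FPKM in the controls, below the minimum for testing. In the RefSeq table ANXA3 overlaps LOC132345534 and ANXA9 overlaps MINDY1; strandedness of the counting is not given in the sources used here, so reads of overlapping genes may not have been told apart. ANXA8L1 overlaps no gene in that table.

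**Figure D2:**
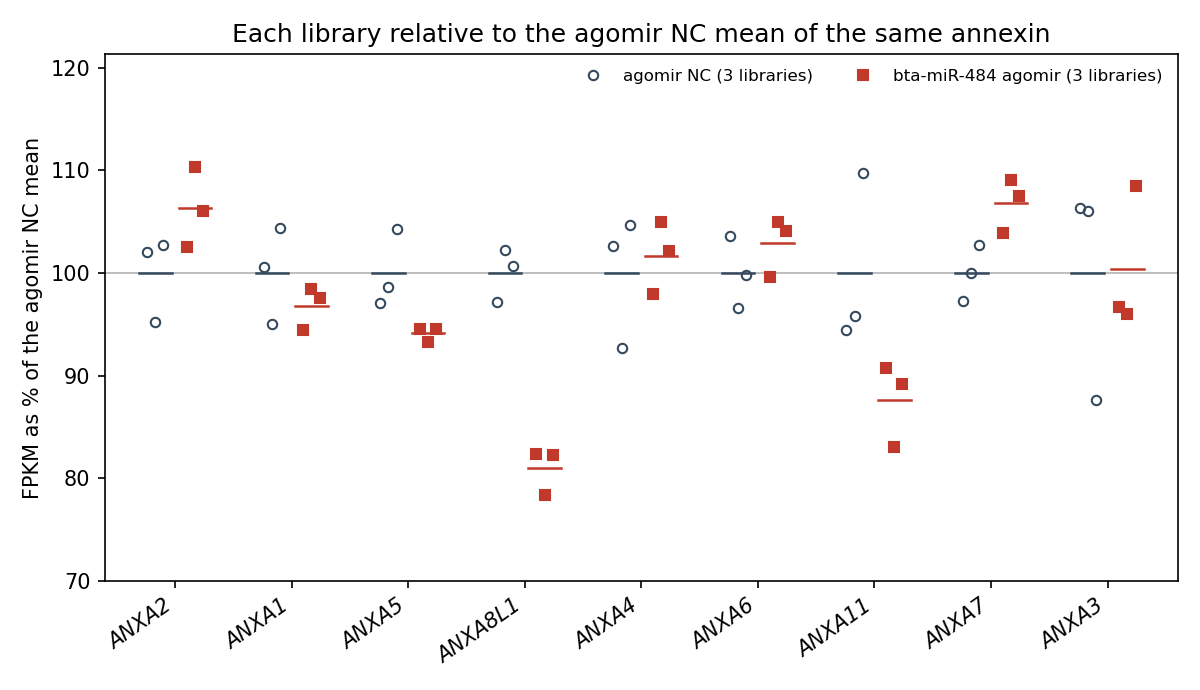
FPKM of each library as a percentage of the agomir NC mean of the same annexin, for the 3 agomir NC libraries (open circles) and the 3 agomir libraries (filled squares), with short lines at the group means and an axis that does not start at 0. The agomir libraries of ANXA8L1, selected on these values, lie between 78.4% and 82.4%, while those of the other 8 annexins lie between 83.1% and 110.3%.

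Genes with a pattern like that of ANXA8L1 were ranked by the Pearson correlation of log2(FPKM + 0.5) over the 6 libraries, among 10642 named genes averaging 1 FPKM or more. The highest were PES1 (r = 0.994), UNC5C (0.992), RCAN1 (0.989), FMNL3 (0.989) and ICAM1 (0.986). The lowest were HELB, RAPGEF2, ATP13A3, RFX7 and NOM1, from -0.993 to -0.988. All points share the libraries and the group difference by which ANXA8L1 was selected, so genes whose groups lie apart score highly, and 153 genes lay above 0.9 and 306 below -0.9. Among the annexins, r with ANXA8L1 was 0.84 for ANXA5, 0.82 for ANXA11 and 0.38 for ANXA1, -0.025 for ANXA3, -0.33 for ANXA4, -0.62 for ANXA6, -0.79 for ANXA2 and -0.82 for ANXA7.

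Genes that work with annexins were grouped by role in 5 lists of 69 genes, of which 52 were tested. In limma, 0 were under an adjusted p of 0.05, the lowest being 0.305, while at an unadjusted p of 0.05, 6 were higher and 6 lower with the agomir, 11.5% each, beside 6.63% of all genes higher and 4.31% lower. With a library left out, the count of higher genes was 3 without agomir replicate 1 (5.77%, beside 5.82% of all genes), 3 without agomir replicate 3 (5.77%, beside 5.24%), 2 without control replicate 2 (3.85%, beside 5.28%), 5 without control replicate 3 (9.62%, beside 5.93%) and 4 in the remaining fits. The count of lower genes was 2 without control replicate 3 (3.85%, beside 3.08%) and 4 when another library was left out (7.69%, beside 3.62% to 4.80%). Without the variance trend, 3 were higher and 3 lower (5.77% each, beside 6.12% and 3.94%). Median-ratio scaling gave 4 higher and 7 lower (7.69% and 13.5%, beside 5.16% and 5.80%), and quantile normalization 4 and 5 (7.69% and 9.62%, beside 5.60% and 5.06%). The replicate block gave 6 and 5 (11.5% and 9.62%, beside 5.94% and 4.20%), and no filter 4 and 5 (6.56% and 8.20%, beside 5.23% and 3.45%). Pseudocounts of 0.1 and 1 and a filter of 1 FPKM kept 6 and 6. Over all alternatives, 4.47% to 6.88% of all genes were higher and 3.08% to 5.80% lower, which is the background of the counts below. Among 14 tested S100 proteins and scaffolds, 0 were higher and 2 lower at that unadjusted p, S100A2 and S100A9, beside those same shares of 6.63% and 4.31%, with a median log2 fold change of -0.068 that was -0.031 without agomir replicate 2, -0.030 without control replicate 3, -0.10 without control replicate 1 and -0.039 after quantile normalization. S100A10, which binds ANXA2, averaged 311 ± 2.33 FPKM after the agomir (SD, n = 3) and 328 ± 20.2 FPKM in the controls (SD, n = 3), and S100A11, which binds ANXA1, 509 ± 13.01 and 532 ± 32.2 FPKM. Both overlapped between the groups, as ANXA1 and ANXA2 did. S100A4, the most abundant of the list, averaged 1113 ± 73.6 and 1199 ± 46.8 FPKM. S100A4 and S100A9 were lower without overlap, as were 6.36% of all genes, while S100A2 overlapped. The S100A4 log2 fold change was -0.11, but -0.053 without agomir replicate 2 and -0.046 after quantile normalization. Without agomir replicate 2 or 3, or control replicate 2 or 3, 0 of this list were lower, beside 3.08% to 4.29% of all genes, and without agomir replicate 2, 1 was higher, beside 4.47%.

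Annexins gather at membrane wounds with calpains, caveolar proteins and the ESCRT machinery. Of 16 tested genes of this list, TSG101, an ESCRT-I subunit, was higher and the protease CAPN1 lower at an unadjusted p of 0.05, beside 6.63% and 4.31% of all genes. The median log2 fold change was 0.011, but -0.0071 with median-ratio scaling, -0.0032 after quantile normalization and -0.0018 without control replicate 2. The count of higher genes was 0 without agomir replicate 1 or 2 or control replicate 2, and that of lower genes 0 without agomir replicate 1 or control replicate 1 or 3. CAPNS1, CAV1 and CAPN2 were its most abundant members, and their groups overlapped. In the RefSeq table CAPN1 overlaps a microRNA gene and CAV1 a gene named by a LOC number.

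Flippases keep phosphatidylserine, a lipid that annexins bind, on the inner leaflet of the plasma membrane, and scramblases expose it. Of 9 tested genes, TMEM30A, ATP11A and XKR8 were higher and PLSCR3 lower at an unadjusted p of 0.05, beside 6.63% and 4.31% of all genes. The median log2 fold change was 0.020, but 0.0027 with median-ratio scaling. It ranged from -0.0036 without control replicate 2 to 0.058 without agomir replicate 3. TMEM30A, the subunit that flippases need to reach the cell surface, gave 37.2, 42.0 and 38.4 FPKM after the agomir and 36.1, 32.9 and 33.8 FPKM in the controls, with an adjusted p of 0.333 in limma. PLSCR3, of the phospholipid scramblase family, gave 17.6, 16.5 and 17.01 FPKM after the agomir and 19.3, 21.3 and 19.3 FPKM in the controls, with an adjusted p of 0.305 in limma. Without overlap between the groups, TMEM30A and ATP11A were higher, as were 10.9% of all genes, and PLSCR3 was lower, as were 6.36%. The groups of XKR8 overlapped. PLSCR4 and ANO6 were the other abundant members, ATP8A2 and XKR4 were listed at 0 throughout, and in the RefSeq table PLSCR3 overlaps TNK1, and ATP11A, XKR8 and ANO6 overlap genes named by LOC numbers.

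ANXA2 with S100A10 assembles plasminogen and its activators on the cell surface. Of 6 tested genes of that system, the activator PLAT was higher and the inhibitor SERPINE2 lower at an unadjusted p of 0.05, beside 6.63% and 4.31% of all genes, with adjusted p of 0.442 and 0.399 in limma. In the RefSeq table PLAT overlaps a gene named by a LOC number. The count of higher genes was 0 without agomir replicate 1, 2 or 3 or control replicate 2 or 3, each left out alone, and that of lower genes 0 without agomir replicate 1 or 3 or control replicate 1 or 3. ANXA1 restrains the release of arachidonic acid for prostaglandin synthesis. Of 7 tested eicosanoid genes, PTGES2 was higher and the cyclooxygenase PTGS2 lower at that unadjusted p, beside the same 6.63% and 4.31%, with adjusted p of 0.443 and 0.333 in limma, and PTGES3 and PTGES were the other abundant members. The count of higher genes was 0 without agomir replicate 1 or 3 or control replicate 1 or 2, and that of lower genes 2 without agomir replicate 3. PLA2G2A, ALOX5 and ALOX5AP were listed at 0 throughout, and S100A6, FPR1 and FPR2 were not analysed here.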

How the data were processed

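RNA was sequenced from 3 agomir and 3 agomir NC libraries. The authors deposited FPKM per gene and library; the submitters' processing notes name fastp, HISAT2, StringTie and the build ARS-UCD1.2. Depth is unknown, since whole reads could not be recovered: of 2983 low genes, at most 10 shared a bin 0.002 wide of the log2 ratio between 2 libraries. The 12422 genes averaging 0.5 FPKM or more were put on the log2(FPKM + 0.5) scale, where 0.5 is a pseudocount that makes changes of low genes look smaller. The fit used limma 3.58.1 under R 4.3.3 with a trend of variance on level; tests were two-sided and Benjamini-Hochberg adjusted over all these genes; the code was tested on simulated data. Alternatives were other pseudocounts (0.1 and 1), other filters (none, or 1 FPKM), median-ratio scaling, quantile normalization, no trend, a replicate block, and leaving out each library.

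The members and lists were chosen with earlier results of these data known. The text names all annexins and, in each partner list, the 3 most abundant genes, those under an unadjusted p of 0.05 and those at 0 throughout, except 1 that is not reported here; TRAPPC4 and the genes of the closing observations were chosen after their values were seen. Overlaps and neighbours were read from RefSeq's gene table for ARS-UCD2.0, in which all 12 annexin symbols matched; no coordinates are given because the builds differ. Protein and miRNA sequences were not used here, so the planned comparisons of annexin proteins and seed matches were not run.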

Additional observations from a re-analysis of the deposited data

How the results depend on the processing

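Under the 14 alternatives the ANXA8L1 log2 fold change lay between -0.32 and -0.28, a description of the same values that selected the gene. In these alternatives, 0 of the other annexins and 0 of the partner genes were under an adjusted p of 0.05 in limma. The summed annexin FPKM, agomir over control, had a ratio of 1.01, which was 0.997 with median-ratio scaling and 0.990 to 1.03 with a library left out. The median of the other annexins was 0.017 and ranged from -0.010 to 0.047 with a library left out.

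Counts at an unadjusted p of 0.05 in limma moved, while 4.47% to 6.88% of all genes were higher and 3.08% to 5.80% lower. The shares of all genes, higher and lower, were 5.23% and 3.45% with no filter, 5.60% and 5.06% after quantile normalization, 6.12% and 3.94% with no trend and 5.94% and 4.20% with the replicate block. For the other annexins, no filter gave 1 higher (ANXA7), median-ratio scaling gave 2 lower (ANXA5 and ANXA11), where the share of all genes was 5.16% higher and 5.80% lower, and leaving out a library gave 0 to 2 higher and 0 to 2 lower. For S100 proteins and scaffolds, the replicate block gave 1 higher, no filter and no trend each gave 1 lower, median-ratio scaling gave 3 lower, and leaving out a library gave 0 to 1 higher and 0 to 2 lower. For membrane repair, no trend gave 0 higher and 0 lower, the replicate block 0 lower, and leaving out a library 0 to 1 each way. For plasminogen activation, both scalings, no trend and the replicate block gave 0 higher, quantile normalization and no trend gave 0 lower, and leaving out a library gave 0 to 1 each way. For eicosanoid synthesis, no filter, both scalings and no trend gave 0 higher, and leaving out a library gave 0 to 1 higher and 1 to 2 lower. For flippases and scramblases, 2 or 3 were higher and 1 lower throughout. The cause was not tested.

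The S100 median, -0.068, was -0.039 after quantile normalization and -0.10 to -0.030 with a library left out, and the eicosanoid median, -0.031, was -0.061 to -0.014. The median of the repair list was 0.011, but -0.0071 with median-ratio scaling and -0.0032 after quantile normalization, and -0.0018 to 0.020 with a library left out. The flippase and scramblase median, 0.020, was 0.0027 with median-ratio scaling and ranged from -0.0036 to 0.058 with a library left out. The plasminogen median, 0.012, was -0.0054 with median-ratio scaling, -0.0047 with no filter, and -0.012 to 0.043 with a library left out.

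Of 420 values of 30 single genes, 411 had the same direction and 9 reversed. ANXA1 was 0.017 after quantile normalization, and ANXA3 was -0.0081 with median-ratio scaling and -0.0046 after quantile normalization. With a library left out, ANXA1 ranged from -0.082 to -0.015 and ANXA6 from 0.017 to 0.067 with no reversal, ANXA3 ranged from -0.073 to 0.049, ANXA4 from -0.028 to 0.059, PLSCR4 from -0.014 to 0.063 and CAV1 from -0.0039 to 0.088. The cause was not tested.

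Across genes, the deviations of an agomir and a control library with equal number had correlations of -0.051, 0.053 and 0.039. Pairs of unequal number were not compared, so these values cannot decide whether such libraries share a calf or culture. With the replicate block, the median of the other annexins was 0.017 and 0 were under an adjusted p of 0.05. Unknown depth limits what can be said of ANXA3 and ANXA9.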

Other observations

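S100A14 averaged 84.3 ± 8.49 FPKM after the agomir (SD, n = 3) and 89.0 ± 6.85 FPKM in the controls (SD, n = 3), and S100A2 averaged 18.6 ± 1.75 and 21.3 ± 1.42 FPKM. All 9 epithelial and keratinocyte markers had means below 0.5 FPKM. EPCAM, the highest of them, had a mean of 0.157 FPKM, and the epithelial transcription factor TP63 was listed at 0 in 4 libraries.

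In RefSeq's gene table for ARS-UCD2.0, the nearest protein-coding neighbours of ANXA8L1 are PPYR1 and ANTXRL, and both were listed at 0 in all 6 libraries. S100A14 lies between S100A13 and S100A16 in that table, which averaged 28.0 ± 2.49 and 106 ± 2.80 FPKM after the agomir (SD, n = 3) and 28.3 ± 3.52 and 104.6 ± 4.36 FPKM in the controls (SD, n = 3).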
